A study of Mus musculus with 7 samples.

Results

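The mitochondrial genome transcripts described here are all genes of the count table whose name starts with mt-, 37 of 34592 genes, and no measured value was used to choose them. They comprise 13 mRNAs, 2 rRNAs and 22 tRNAs, which together make up the whole gene content of chrM, a circle of 16299 bases in the NCBIM37 build. Mitochondrial DNA is copied by its own RNA polymerase from promoters on the heavy and the light strand into long precursor RNAs that run through many genes. The tRNAs that lie between the other genes are cut out of the precursors, which frees the mRNAs and rRNAs on either side. The mRNAs encode core subunits of complexes I, III and IV and of ATP synthase, and the rRNAs and tRNAs serve the ribosomes that translate them inside the organelle. In tumors these transcripts are commonly read as a gauge of respiratory capacity and mitochondrial content.

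RNA came from 7 mouse group 3 medulloblastomas (G3 MBs), an aggressive cerebellar tumor type driven here by Myc. All were grown from a single tumorsphere line, # 19568, whose founder cells, cerebellar granule neuronal progenitors, carried an MSCV retrovirus for Myc. The study's methods give the construct of this line as Myc-IRES-GFP, whereas a figure legend of the study gives Myc-IRES-RFP. Per the study's methods, the progenitors for its mouse G3 MBs came from Trp53-/-; Cdkn2c-/- mice. The spheres were infected with a lentivirus in which the EF1 promoter drives human WDR11 and copGFP (WDR11OE, 4 tumors) or with the empty vector (control, 3 tumors, given no treatment in the sample labels), and were placed in the cortices of CD1-nu/nu mice until the hosts were moribund. WDR11 encodes a WD-repeat protein, and the comparison asks which genes differ in tumors with enforced WDR11. The cells were not sorted after infection, and the bulk tumor pieces retain host cells of athymic mice. Animal age and sex were not used here.

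Total counts ranged from 32116095 to 87141305 per tumor, and the deeper libraries were WDR11OE 2 and 4. The mouse Wdr11 gene, held 58.9, 58.3 and 59.3 CPM in the control tumors and 66.8, 61.0, 65.7 and 68.9 CPM in the WDR11OE tumors, where CPM are counts scaled to the effective library size given by TMM, which corrects for differences in RNA composition (log2 fold change 0.16, edgeR quasi-likelihood test, Benjamini-Hochberg adjusted, adjusted p = 0.0910). The human transgene was not analysed here. All 8 G3 MB marker genes had counts in every tumor, with summed levels of 2157 to 2572 CPM in controls and 1859 to 2276 CPM in WDR11OE tumors, although Otx2 stayed between 0.0710 and 0.306 CPM. Of the 7 markers tested, Myc, the driver of the model, was called lower, with 812 to 1109 CPM in controls and 278 to 431 CPM in WDR11OE tumors (log2 fold change -1.40, adjusted p = 0.00227 in the same edgeR test), and Top2a, a gene of dividing cells, was called higher, with 563 to 706 and 871 to 1079 CPM (0.70, adjusted p = 0.00593). Mki67, also a gene of dividing cells, had lower values without a call, with 693 to 923 and 613 to 700 CPM (-0.30, adjusted p = 0.0949). Lin28b, at 4.72 to 10.3 and 11.7 to 26.0 CPM, was not called (adjusted p = 0.0671). Neither were Prom1 (-0.66, adjusted p = 0.0755), Npr3 (-0.53, 0.195) and Nes (0.04, 0.745). Libraries of the 2 groups were named in separate numbered series, so series and condition cannot be told apart. Nothing in the labels says that the tumors of a group came from separate cultures, so p-values measure the spread between these tumors only.

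The genes are packed with few bases between them, and several share bases, which bears on how reads could be assigned. The ends of mt-Nd5 and mt-Nd6, which encode complex I subunits from opposite strands, overlap by 14 bases, shown in capitals on the plus strand (NCBIM37 chrM:13532-13585). On the same strand, mt-Atp8 and mt-Atp6 overlap by 43 bases (chrM:7907-7989) and mt-Nd4l and mt-Nd4 by 7 bases (chrM:10147-10193), again in capitals. The reads within such overlaps could not be given to 1 gene by position alone.
mt-Nd5/mt-Nd6: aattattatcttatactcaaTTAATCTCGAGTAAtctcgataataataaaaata
mt-Atp8/mt-Atp6: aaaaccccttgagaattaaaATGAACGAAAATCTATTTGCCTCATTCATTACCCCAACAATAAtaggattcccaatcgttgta
mt-Nd4l/mt-Nd4: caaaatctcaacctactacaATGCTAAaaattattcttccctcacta

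The 3 RNA classes moved apart between the groups. The rRNAs held 3.93, 3.59 and 3.05% of all counts in the control tumors and 1.66, 1.99, 2.25 and 2.09% in the WDR11OE tumors, or 3.53% ± 0.446 (SD, n = 3) against 1.99% ± 0.250 (SD, n = 4). Every WDR11OE tumor lay below every control. The mRNAs went the other way, with 1.30, 0.990 and 0.868% of counts in controls and 1.38, 1.42, 1.57 and 1.6996% in WDR11OE tumors (1.05% ± 0.225 against 1.52% ± 0.147). Here control 1 and WDR11OE 1 lay next to each other, but the groups did not overlap. The tRNAs held 0.000705, 0.000333 and 0.000581% of counts in controls and 0.000440, 0.000421, 0.000489 and 0.000876% in WDR11OE tumors, and the groups overlapped. In log2 terms the class shares differed by -0.82 for rRNA, 0.54 for mRNA and 0.04 for tRNA, given without a test because each is a sum over members. The tRNA difference turned to -0.27 without control 2 and to -0.20 without WDR11OE 4.

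Summed over all 37 genes, the mitochondrial share was 5.24, 4.58 and 3.92% in controls and 3.03, 3.41, 3.82 and 3.79% in WDR11OE tumors, lower without overlap, and the rRNAs made up most of it in every tumor. The count of rRNA per count of mRNA was accordingly 3.02, 3.63 and 3.51 in controls and 1.20, 1.40, 1.43 and 1.23 in WDR11OE tumors, a mean of 3.39 ± 0.325 against 1.31 ± 0.117. In bulk tumors, fewer cells of a type and less RNA per cell cannot be told apart.

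**Figure D1:**
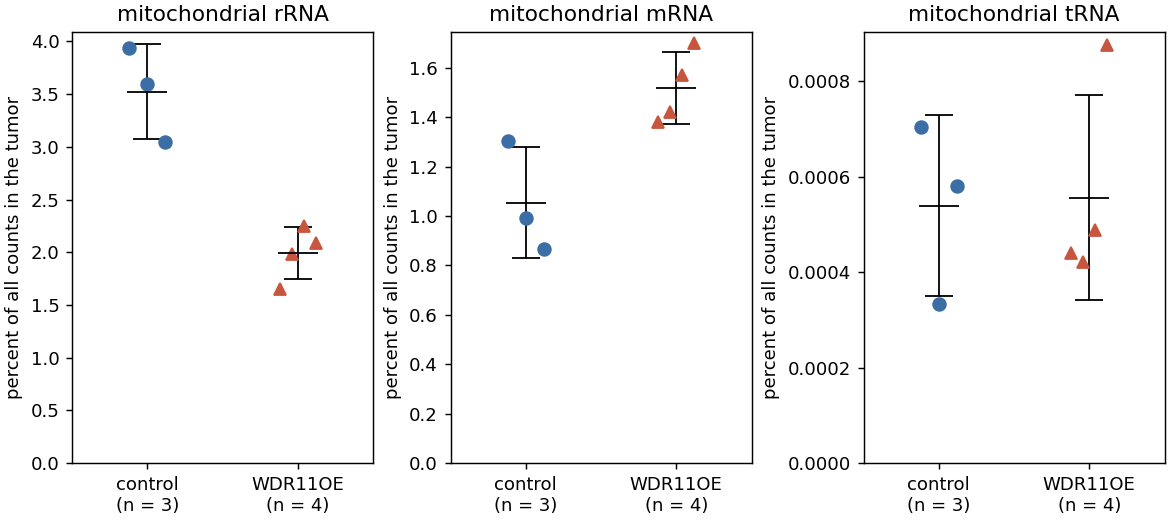
Percent of all counts (vertical axes, from 0) taken by the mitochondrial rRNA, mRNA and tRNA genes in 3 control and 4 WDR11OE tumors, with each tumor as a symbol and lines for the mean and SD. The rRNA share is lower in all 4 WDR11OE tumors, the mRNA share is higher in all 4, and the tRNA shares overlap.

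The small-subunit rRNA fell in the WDR11OE tumors, and the large-subunit rRNA had lower values whose call depended on the test. mt-Rnr1 (chrM:70-1024, plus strand), the rRNA of the small subunit, held 5114, 5587 and 5336 CPM in the control tumors and 1634, 1952, 1841 and 1583 CPM in the WDR11OE tumors. The WDR11OE tumors formed a narrow range at less than the level of any control. Its log2 fold change was -1.61 ± 0.14 (SE) with an adjusted p of 0.000917 (edgeR quasi-likelihood test, Benjamini-Hochberg adjusted, as for all adjusted p-values given below unless another tool is named). mt-Rnr2 (chrM:1094-2675, plus strand), the rRNA of the large subunit, held 33656, 29878 and 25889.6 CPM in the control tumors and 14934, 19215, 20395 and 18326 CPM in the WDR11OE tumors. Its groups did not overlap, with WDR11OE 1 lowest, but its log2 fold change of -0.71 ± 0.27 did not pass the edgeR test (adjusted p = 0.0819), whereas limma-voom gave an adjusted p of 0.0117 and DESeq2 one of 6.75e-07, and edgeR without WDR11OE 4 gave 0.0379. Thus 1 of 2 rRNAs was called lower and 0 higher, where 15.8% of all genes tested were called lower, and both rRNAs had groups that did not overlap, as had 19.1% of all genes in that direction. The 0 rRNAs called higher stayed 0 at an unadjusted p under 0.05 and by limma-voom and DESeq2. mt-Rnr1 also passed a 2-fold call with the thresholds of the study, which include a mean log2 CPM above 0, as did 3.36% of all genes in that direction.

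The 2 rRNA genes lie next to each other on the same strand, with only mt-Tv between them, and a ratio of their counts within a tumor does not depend on library scaling. The tumors held 6.58, 5.35 and 4.85 counts of mt-Rnr2 per count of mt-Rnr1 in controls and 9.14, 9.84, 11.1 and 11.6 in WDR11OE tumors. All 4 WDR11OE tumors lay above the controls, by a log2 difference of 0.90, or 1.87-fold (two-sided exact permutation test over 35 splits, p = 0.0286, the smallest these splits allow, and unchanged when adjusted over the 2 ratios tested). Other RNA kinds, most of which lack the poly(A) tail of mRNA, differed between the groups as well. Small nuclear RNA genes held 0.0673 to 0.0877% of counts in controls and 0.0396 to 0.0428% in WDR11OE tumors, and nuclear rRNA genes 0.0156 to 0.0285% and 0.00804 to 0.0146%. Genes annotated as miRNA held 1.89 to 2.93% and 0.279 to 0.335%, while small nucleolar RNA genes held 0.365 to 0.377% and 0.410 to 0.456%. These kinds follow the gene annotation, and whether their reads came from the annotated RNA was not tested. Histone genes, 0.815 to 1.56% and 1.15 to 1.55%, overlapped. The part of these differences in the rRNA result was not tested, and the labels name the TruSeq RNA Library Preparation Kit v2 whereas the study's methods describe total stranded RNA sequencing.

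Per kilobase of gene, the 13 mRNAs spanned a wide range of levels. Means in control tumors ran from 2603 CPM per kilobase for mt-Co1, 2042 for mt-Co3 and 1655 for mt-Co2 down to 62.0 for mt-Nd6 and 45.9 for mt-Nd4l, and in WDR11OE tumors from 4688 for mt-Co1 to 77.7 for mt-Nd4l. By these counts, the same 3 subunits of cytochrome c oxidase, complex IV, led in both groups. Gm10925, a nuclear gene 99.9% identical to mt-Atp6 and described below, held a mean of 957 CPM in controls and 1455 CPM in WDR11OE tumors, against 512 and 746 CPM for mt-Atp6. Gm10222, a like match of mt-Nd4l, held 29.5 and 55.2 CPM, against 13.6 and 23.1 CPM for mt-Nd4l. The ranks of mt-Atp6 and mt-Nd4l are therefore uncertain. For comparison, mt-Rnr2 stood at 18842 and 11515 CPM per kilobase and mt-Rnr1 at 5597 and 1835, so that mt-Rnr1 lay below mt-Co1 and mt-Co3 in WDR11OE tumors on this scale. At the low end, mt-Nd6 stood well under mt-Nd5 in controls (62.0 and 207 CPM per kilobase) and close to it in WDR11OE tumors (176 and 191). mt-Atp8 and mt-Nd5 were level in controls, at 206 and 207 CPM per kilobase, and mt-Atp8 was the higher in WDR11OE tumors, at 338.

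**Figure D2:**
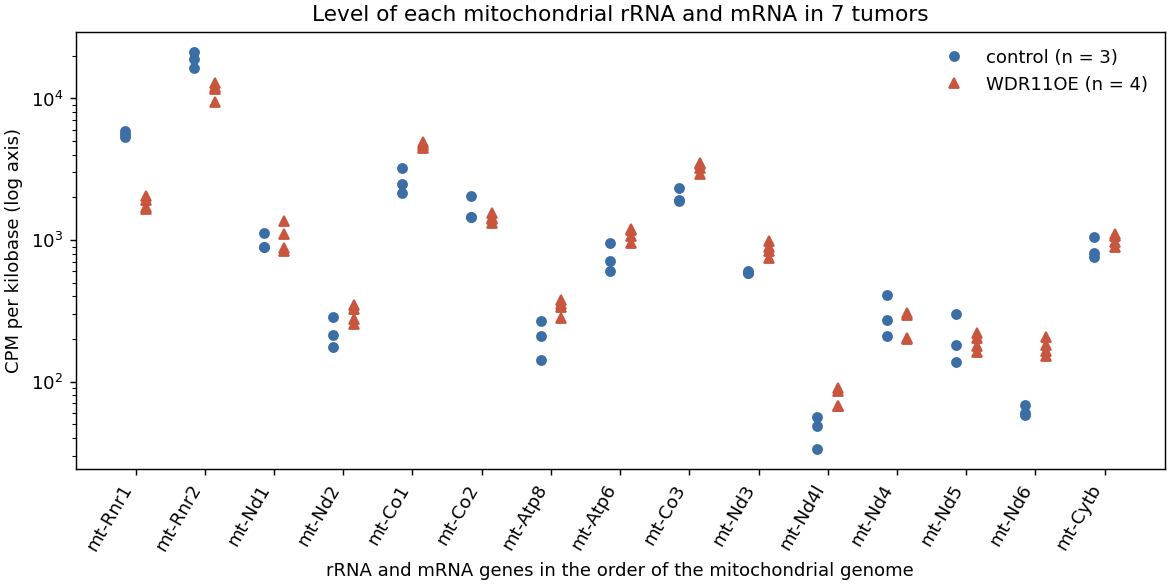
Level of each rRNA and mRNA gene in CPM per kilobase (vertical log axis) in the order of the mitochondrial genome, with 1 symbol per control (circles) and WDR11OE tumor (triangles). mt-Rnr1 is separated downward and mt-Nd6 and mt-Co1 upward in the WDR11OE tumors, while symbols of the 2 groups mix for mt-Nd4 and mt-Nd5.

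Of the 13 mRNAs, 7 were called higher in the WDR11OE tumors, 0 lower and 6 were not called, where 18.1% of all genes tested were called higher. The same 7 had groups that did not overlap, against 23.5% of all genes in that direction. The median log2 fold change was 0.54 over the 13 mRNAs and 0.08 over all genes tested, and 1 mRNA, mt-Nd6, passed the 2-fold call with the study's thresholds, which 2.19% of all genes passed in that direction. No mRNA was lower at an unadjusted p under 0.05, by limma-voom or by DESeq2 either. The count of 7 became 3 without control 2 and 4 without control 3, WDR11OE 2 or WDR11OE 3. Calls over all genes fell as well, from 3150 of 17389 genes called higher to 2045 of 17696 without control 2. They fell to 2625 of 17839 without control 3, 1657 of 17179 without WDR11OE 2 and 2490 of 17143 without WDR11OE 3. The count of 7 mRNAs also changed when a trend of nuclear genes with base composition was removed. The mRNA genes have 31.9 to 41.1% GC, and nuclear genes of low GC content had higher log2 fold changes. For each of the 13 mRNAs the trend was positive (0.34 to 0.64), so that its removal lowers the value. Whether mitochondrial RNAs follow the nuclear trend was not tested. With the trend over 14906 nuclear protein-coding genes removed, 1 mRNA remained called higher, mt-Nd6 (0.89, adjusted p = 0.0233), and 2 were called lower, mt-Co2 (-0.69, adjusted p = 0.0327) and mt-Nd4 (-0.87, adjusted p = 0.0251), with 4.46 and 8.03% of all genes called higher and lower in that fit. The fit has a limit, since 10 tested members lie below 36.2% GC, the lowest value used, and were given the trend's value there (0.64 on the log2 scale).

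Of the 3 complex IV mRNAs, 2 rose in the WDR11OE tumors. mt-Co1 (chrM:5328-6872), the catalytic subunit, held 4958, 3814 and 3295 CPM in the control tumors and 6901, 7570.1, 7088 and 7415 CPM in the WDR11OE tumors, with WDR11OE tumors close together and all above the controls. Its log2 fold change was 0.85 ± 0.19 (adjusted p = 0.0144), but the adjusted p was 0.0551 without control 2, 0.0581 without WDR11OE 1 and 0.0515 without WDR11OE 2. mt-Co3 (chrM:8607-9390), a core subunit next to the catalytic one, held 1836, 1497 and 1469 CPM in the control tumors and 2281, 2523, 2706 and 2755 CPM in the WDR11OE tumors. These groups were apart too, and the log2 fold change of 0.68 ± 0.14 (adjusted p = 0.00962) stayed called when any 1 tumor was left out. mt-Co2 (chrM:7013-7696), the subunit that takes electrons from cytochrome c, behaved differently, with 1402, 997 and 997 CPM in the control tumors and 897, 977, 961 and 1064 CPM in the WDR11OE tumors. The groups overlapped and the log2 fold change of -0.22 ± 0.15 was not called (adjusted p = 0.316).

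The complex I members split in the same manner, with 3 of 7 called higher. mt-Nd3 (chrM:9459-9806) held 209, 205 and 203 CPM in the control tumors and 259, 291, 311 and 342 CPM in the WDR11OE tumors. The controls were nearly equal and all WDR11OE tumors stood above them (log2 fold change 0.55 ± 0.10, adjusted p = 0.00620), with or without any 1 tumor. mt-Nd4l (chrM:9877-10173) held 16.6, 14.4 and 9.93 CPM in the control tumors and 19.9, 20.04, 25.6 and 26.8 CPM in the WDR11OE tumors, and its groups did not overlap (0.76 ± 0.20, adjusted p = 0.0258), although the adjusted p was 0.0673 without control 2, 0.0550 without control 3 and 0.0661 without WDR11OE 3. mt-Nd4 (chrM:10167-11544), whose start shares bases with the end of mt-Nd4l, held 564, 375 and 287 CPM in the control tumors and 277, 281, 409 and 420.5 CPM in the WDR11OE tumors. Control 1 was highest and the other tumors of both groups mixed (log2 fold change -0.24 ± 0.26, adjusted p = 0.532). Without control 1 the log2 fold change of mt-Nd4 was 0.063 (adjusted p = 0.859). The not-called members mt-Nd1, mt-Nd2 and mt-Nd5 had log2 fold changes of 0.10 (adjusted p = 0.725), 0.42 (0.124) and -0.12 (0.769). The value of mt-Nd1 turned to -0.049 without WDR11OE 4 and that of mt-Nd5 to 0.26 without control 1. Mature neuron markers summed to 459, 133 and 67.1 CPM in controls and 11.8, 26.7, 205 and 680 CPM in WDR11OE tumors. They were thus highest in control 1 and in WDR11OE 3 and 4, the tumors of each group where mt-Nd1, mt-Nd4 and mt-Nd5 were highest. The same tumors were highest for mt-Nd2, mt-Nd3, mt-Nd4l, mt-Co3, mt-Atp6, mt-Atp8 and mt-Cytb, but not for mt-Co1, mt-Co2 and mt-Nd6. This order thus includes members called higher. The part of neuronal RNA in these levels was not tested.

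Both ATP synthase mRNAs were called higher, and both near the threshold. mt-Atp8 (chrM:7766-7969), a small membrane subunit, held 54.5, 29.0 and 42.8 CPM in the control tumors and 57.3, 68.9, 72.1 and 77.2 CPM in the WDR11OE tumors (log2 fold change 0.71 ± 0.21, adjusted p = 0.0362). mt-Atp6 (chrM:7927-8607), the subunit of the proton channel, held 646, 480.4 and 408 CPM in the control tumors and 648, 730.0, 809 and 799 CPM in the WDR11OE tumors (0.54 ± 0.17, adjusted p = 0.0443). For mt-Atp6 control 1 and WDR11OE 1 were nearly equal. Leaving out any 1 tumor other than control 1 gave adjusted p-values of 0.0733 to 0.133 for mt-Atp6. For mt-Atp8, leaving out control 2, control 3, WDR11OE 2, 3 or 4 gave 0.0595 to 0.0926. mt-Cytb (chrM:14145-15288), the single mitochondrial gene of complex III, held 1202, 921 and 863 CPM in the control tumors and 1016, 1100.3, 1266 and 1217 CPM in the WDR11OE tumors, with overlapping groups and a log2 fold change of 0.21 ± 0.15 that was not called (adjusted p = 0.334).

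**Figure D3:**
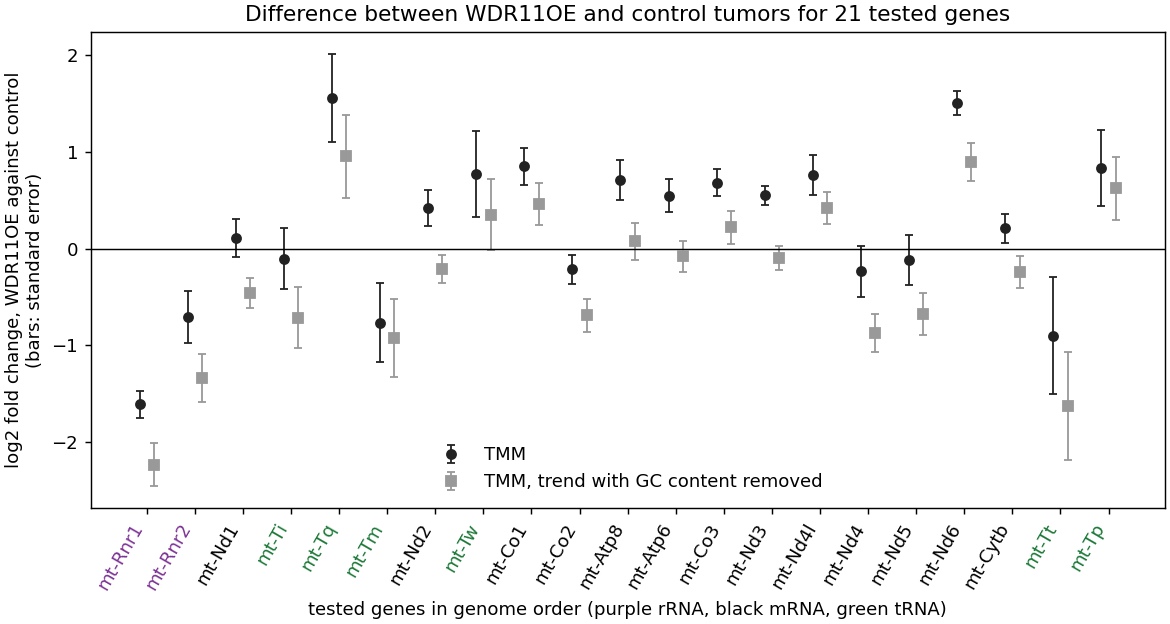
Log2 fold change of WDR11OE against control tumors with its standard error for the 21 tested genes in genome order, with library scaling by TMM (dark circles) and after removing the trend with GC content (grey squares). mt-Rnr1 lies at -1.61 and mt-Nd6 at 1.51 with TMM, and removing the trend moves every value downward.

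Shares within the mitochondrial mRNA pool do not depend on the library total. mt-Co1 made up 38.6, 39.0 and 37.1% of the mRNA counts in controls and 50.0, 50.1, 45.6 and 45.7% in WDR11OE tumors. Without overlap, mt-Co1, mt-Co3 (15.4% ± 1.12 to 16.9% ± 0.385) and mt-Nd6 took larger shares in the WDR11OE tumors, and mt-Nd1 (8.89% ± 0.605 to 6.52% ± 1.13), mt-Co2 (10.8% ± 0.521 to 6.43% ± 0.168), mt-Nd4 (3.82% ± 0.579 to 2.27% ± 0.396), mt-Nd5 (3.50% ± 0.752 to 2.29% ± 0.216) and mt-Cytb (9.50% ± 0.186 to 7.57% ± 0.392) took smaller ones. The shares of the other 5 mRNAs overlapped. By complex, complex IV held 64.4% ± 0.540 of the mRNA counts in controls and 71.2% ± 2.27 in WDR11OE tumors, complex I held 20.9% ± 0.509 and 15.9% ± 1.82, and ATP synthase held 5.25% ± 0.191 and 5.37% ± 0.233. These are descriptions without a test, and the shares of a pool must sum to a whole. They leave out the counts of Gm10925 and Gm10222, the nuclear matches of mt-Atp6 and mt-Nd4l. The ATP synthase share in particular is therefore uncertain.

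**Figure D4:**
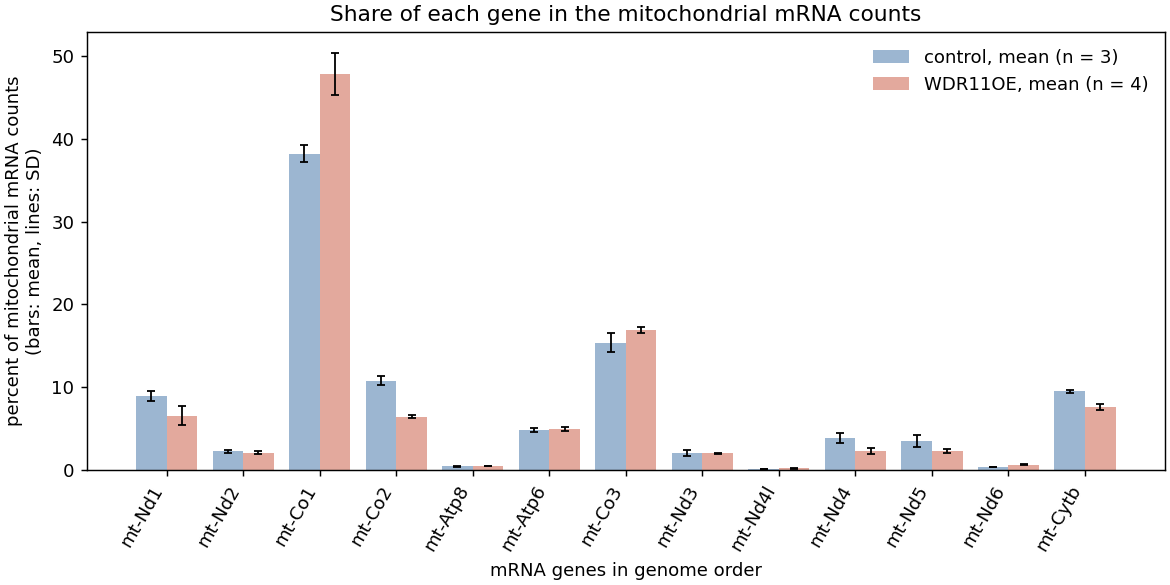
Mean share of each of the 13 mRNA genes in the mitochondrial mRNA counts (percent, bars from 0, lines for SD) in 3 control and 4 WDR11OE tumors. mt-Co1 takes the largest share in both groups, 38.2% in controls and 47.9% in WDR11OE tumors, and mt-Co2 stands at 10.8% and 6.43%.

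Muscle transcripts, another source of mitochondrial RNA in tissue pieces, moved with the condition. Summed levels of the 12 skeletal and cardiac muscle markers were 5.85 to 9.89 CPM in controls and 55.0 to 141 CPM in WDR11OE tumors, with 9 of 10 tested markers called higher and Mb, encoding myoglobin, at 0 in all controls. WDR11OE 3 had the highest muscle sum, whereas the mRNA share was highest in WDR11OE 4. The endothelial sum was 79.1 to 107 CPM in controls and 66.6 to 75.1 CPM in WDR11OE tumors, and the sums for astrocytes (376 to 573 and 159 to 696 CPM), oligodendrocytes (104 to 305 and 86.2 to 313 CPM), microglia (46.5 to 109 and 41.9 to 114 CPM) and erythroid cells (98.98 to 1123 and 23.6 to 378 CPM) overlapped. No defining marker of these other types was at 0 in all tumors of a group. The part of these cells in the mitochondrial values was not tested.

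Mitochondrial reads can also match copies of mitochondrial DNA in the nuclear genome. A search of NCBIM37 found 8 such copies of at least 100 bases and 95% identity, the longest being chr1:24618374-24623027, which matches chrM:6390-11042 at 99.9% identity. Of the mRNAs, copies of at least 99% identity cover mt-Co2, mt-Atp8, mt-Atp6, mt-Co3, mt-Nd3 and mt-Nd4l whole, 65.8% of mt-Nd4 and 31.3% of mt-Co1. The table lists 2 genes inside the chr1 copy. Gm10925, which matches mt-Atp6, held 64.7 to 66.3% of the counts of both genes in every tumor and also covers most of mt-Atp8, and Gm10222, which matches mt-Nd4l, held 67.0 to 71.0%. Their log2 fold changes were 0.60 (adjusted p = 0.0289) and 0.90 (adjusted p = 0.0196). When these counts were added to their mitochondrial match, an alternative chosen after seeing the data, the log2 fold change was 0.58 (adjusted p = 0.0400) for mt-Atp6 and 0.86 (adjusted p = 0.0196) for mt-Nd4l. All Gm10925 counts went to mt-Atp6 here, since reads over its mt-Atp8 stretch could not be separated, and mt-Atp8 was left as it was.

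A second copy, chr2:22442808-22446054 (97.4% identity), holds Gm13341, the match of mt-Co2, which had a log2 fold change of -0.79 (adjusted p = 0.0174). Gm13341 took 6.57 to 10.7% of the counts of that pair in controls and 5.76 to 6.02% in WDR11OE tumors. Gm13340, the match of mt-Co1, took 1.96 to 5.27% in controls and 1.53 to 1.62% in WDR11OE tumors. In both pairs the groups did not overlap, and the part of this in the mt-Co1 and mt-Co2 values was not tested. Levels of the covered members are therefore uncertain, since how reads that match both places were assigned is not given in the sources used here. Of the 8 heavy-strand mRNAs with bases in a copy of at least 99% identity, 6 were called higher (median log2 fold change 0.62), and of the 4 without, mt-Nd1, mt-Nd2, mt-Nd5 and mt-Cytb, 0 were called in the edgeR fit (median 0.16), beside 18.1% of all genes called higher. Copies of at least 95% identity do cover 49.2% of mt-Nd2 and 52.4% of mt-Nd5. Gm13339, the match of mt-Nd2 in the chr2 copy, took 1.26 to 2.11% of the counts of that pair. With so few genes in each set the counts are given as a description only. The part of the copies in this split was not tested.

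mt-Nd6, the one mRNA read from the light strand, gave the largest rise of the 13. This complex I subunit (chrM:13552-14070, minus strand) held 35.6, 29.9 and 31.0 CPM in the control tumors and 86.0, 107, 94.5 and 78.2 CPM in the WDR11OE tumors. The groups were far apart, with a log2 fold change of 1.51 ± 0.13 (adjusted p = 0.000917), and the call held in all 17 other fits. Its neighbour mt-Nd5 on the heavy strand (chrM:11742-13565) held 552, 332 and 249 CPM in the control tumors and 293, 323, 403 and 373 CPM in the WDR11OE tumors, with overlapping groups. Within a tumor there were 0.0646, 0.0901 and 0.125 counts of mt-Nd6 per count of mt-Nd5 in controls and 0.293, 0.332, 0.235 and 0.210 in WDR11OE tumors. Every WDR11OE value was above every control value, by a log2 difference of 1.55, or 2.93-fold (two-sided exact permutation test over 35 splits, p = 0.0286, the smallest possible). No nuclear copy of at least 99% identity covers mt-Nd6.

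The transcripts of the 2 strands differ in base content, as the first 60 bases of mt-Nd6 (chrM:14011-14070, minus strand) and of mt-Co1 (chrM:5328-5387, plus strand) show, each read 5′ to 3′ as its RNA with G in capitals. Over its whole length mt-Nd6 has 28.1% G, against 5.88 to 16.1% for the 12 mRNAs of the heavy strand. Whether the counting used strand is not given in the sources used here. If it did not, RNA of the opposite strand over the same bases would be counted as mt-Nd6, so the measured rise concerns RNA of either strand at this place.
mt-Nd6: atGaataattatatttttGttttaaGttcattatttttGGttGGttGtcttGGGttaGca
mt-Co1: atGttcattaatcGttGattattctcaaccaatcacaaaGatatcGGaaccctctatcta

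The tRNAs were counted at very low levels, and most could not be tested. In all 7 tumors the 22 genes held 2047 counts together. Of the 22, 7 were at 0 in every tumor, which allows up to 3 counts per library, or 0.0924 CPM in the smallest, a further 9 had 150 counts in all and did not pass the filter, and 6 were tested. The genes are 59 to 75 bases long, so that reads from a mature tRNA are short, and their levels were read as fragments seen by this protocol, not as tRNA abundance. As sets, genes flanked on both sides held the fewest counts. The 8 tRNA genes with a same-strand gene within 5 bases on both sides held 9 counts in all tumors together, 0 of them reaching 10 counts. The 11 with such a neighbour on 1 side held 1448, and the 3 with none held 590, all 3 reaching 10 counts. Within the set with a neighbour on 1 side, counts ran from 0 for mt-Tf, mt-Tn and mt-Td to 514 for mt-Tt. Nuclear copies of at least 99% identity hold mt-Tk, mt-Tg, mt-Tr, mt-Th and part of mt-Ts2, all flanked on both sides. They also hold mt-Td and mt-Ts1, and none of the 6 tested tRNAs. How the counting treated reads that span neighbouring genes or match a copy is not given in the sources used here. The part of either in this pattern was not tested.

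**Figure D5:**
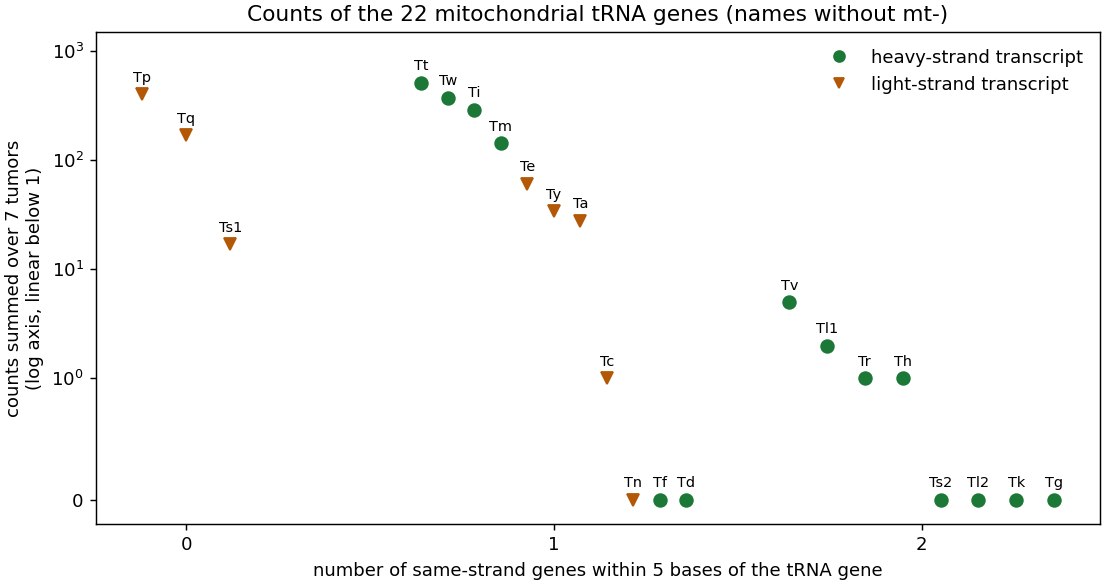
Counts of each of the 22 tRNA genes summed over 7 tumors (vertical axis, log above 1 and linear below) against the number of same-strand genes within 5 bases (horizontal axis), with symbols by strand. Genes flanked on both sides stay at or below 5 counts, whereas the 3 genes without such a neighbour all exceed 10.

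The tested tRNAs include a cluster where strands alternate. mt-Ti (isoleucine, chrM:3706-3774) and mt-Tm (methionine, chrM:3845-3913) lie on the plus strand on either side of mt-Tq (glutamine, chrM:3772-3842, minus strand). Their genes are shown 5′ to 3′ as transcribed, with the bases shared with a neighbouring gene in capitals. mt-Tq shares its last 3 bases with mt-Ti of the other strand, and mt-Ti its first 2 also with mt-Nd1.
mt-Ti: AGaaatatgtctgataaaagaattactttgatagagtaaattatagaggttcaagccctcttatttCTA
mt-Tq: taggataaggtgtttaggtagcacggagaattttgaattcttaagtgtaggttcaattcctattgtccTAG
mt-Tm: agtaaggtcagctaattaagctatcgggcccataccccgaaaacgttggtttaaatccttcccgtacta

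Of the 6 tested tRNAs, 1 was called higher (mt-Tq), 0 lower and 5 were not called, set against 18.1% of all genes called higher. mt-Tq had 7, 11 and 3 counts in the control tumors and 20, 47, 11 and 71 in the WDR11OE tumors, or 0.195, 0.262 and 0.0919 CPM in the control tumors and 0.474, 0.586, 0.339 and 0.778 CPM in the WDR11OE tumors. The CPM did not overlap, and the log2 fold change was 1.56 ± 0.45 (adjusted p = 0.0343). The call rests on few counts, lies under the study's floor on the mean log2 CPM (-1.44), was not made by DESeq2 (adjusted p = 0.0528), and was lost without control 1, control 3, WDR11OE 1, WDR11OE 2 or WDR11OE 4 (adjusted p 0.0620 to 0.0894). No tRNA was lower at an unadjusted p under 0.05, by limma-voom or by DESeq2. The other tested tRNAs had log2 fold changes of 0.83 for mt-Tp (proline, adjusted p = 0.147), 0.77 for mt-Tw (tryptophan, 0.233), -0.10 for mt-Ti (0.831), -0.77 for mt-Tm (0.193) and -0.90 for mt-Tt (threonine, 0.300). The sign of mt-Ti depended on control 1, without which it was 0.25. mt-Tt varied most, with 79, 26 and 114 counts in controls and 29, 56, 40 and 170 in WDR11OE tumors.

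Summed by strand, the 8 light-strand tRNA genes held 1.53, 1.10 and 0.827 CPM in controls and 1.78, 1.88, 1.69 and 3.34 CPM in WDR11OE tumors. They made up 22, 33.3 and 13.9% of the tRNA counts in controls and 40.3, 42.1, 35.03 and 40.0% in WDR11OE tumors, all above the controls. The 14 heavy-strand tRNA genes held 5.42, 2.19 and 5.12 CPM in controls and 2.63, 2.59, 3.14 and 5.02 CPM in WDR11OE tumors, which overlapped. Single genes weigh heavily in both sums. Over all tumors mt-Tp gave 403 of the 714 light-strand tRNA counts, and mt-Tt gave 514 of the 1333 heavy-strand ones. The sums by strand were not tested, and the strand limit given for mt-Nd6 holds for them too.

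Nuclear genes that make, process and maintain mitochondrial RNA and DNA were read in the same fit. Over 5 lists, 26 of 74 tested genes were called higher and 6 lower, with 18.1 and 15.8% of all genes as background, and 7 and 2 after removal of the GC trend, where 4.46 and 8.03% of all genes were called. The count of 26 was 15 without WDR11OE 1 or WDR11OE 2, where 1560 of 17114 and 1657 of 17179 genes overall were called higher, against 3150 of 17389 with all tumors. The count of 6 was 3 without control 3, WDR11OE 1, WDR11OE 2 or WDR11OE 3. In these 4 fits 2079, 2011, 2196 and 2246 of all genes were called lower, against 2744 with all tumors. Of 11 transcription genes 6 were called higher and 1 lower (median log2 fold change 0.45). The one lower was Polrmt, the mitochondrial RNA polymerase, with 40.9, 46.8 and 46.6 CPM in the control tumors and 26.8, 28.1, 26.7 and 24.9 CPM in the WDR11OE tumors (log2 fold change -0.75 ± 0.08, adjusted p = 0.00111), and it was not called after removal of the GC trend (-0.44, adjusted p = 0.126). Its level was below every control in all 4 WDR11OE tumors. Mterf1a, whose protein binds within the leucine tRNA gene behind mt-Rnr2 and can end transcription there, held 3.11, 4.34 and 3.71 CPM in the control tumors and 9.26, 9.04, 7.49 and 6.98 CPM in the WDR11OE tumors (1.14 ± 0.19, adjusted p = 0.00422, and 0.0808 after removal of the GC trend). Its groups did not overlap, but reads of the near-identical Mterf1b cannot be told apart from it with certainty.

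Among 20 genes of RNA processing and decay, 7 were called higher and 1 lower (median 0.28). Pnpt1, the polynucleotide phosphorylase of the mitochondrial RNA degradosome, held 87.5, 69.4 and 80.3 CPM in the control tumors and 193, 178, 183 and 184 CPM in the WDR11OE tumors (1.22 ± 0.09, adjusted p = 0.000858). Slirp, the partner of Lrpprc in mRNA stability, held 19.3, 19.98 and 24.6 CPM in the control tumors and 41.8, 44.8, 44.2 and 44.6 CPM in the WDR11OE tumors (1.04 ± 0.10, adjusted p = 0.00105). In both genes all WDR11OE tumors were above all controls, and both stayed called without the GC trend. Tbrg4 was lowest of this list, at -0.29 (adjusted p = 0.0419, and 0.573 without the GC trend). Of 20 genes that modify rRNA and tRNA, 9 were called higher and 1 lower (median 0.29), from Trnt1, which adds the CCA end to tRNAs (1.14 ± 0.08, adjusted p = 0.000858), to Nsun3, a methyltransferase for the anticodon of methionine tRNA (-0.42 ± 0.11, adjusted p = 0.0285), and both of these stayed called without the GC trend.

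The 13 replication genes had 4 called higher and 2 lower (median 0.26), between Polg2, the accessory subunit of the DNA polymerase (0.82 ± 0.14, adjusted p = 0.00408), and Twnk, the replicative helicase (-0.48 ± 0.09, adjusted p = 0.00785). Without the GC trend neither was called (adjusted p = 0.0536 and 0.178). Of 10 nuclear regulators of mitochondrial genes, 0 were called higher by edgeR, which was also 0 at an unadjusted p under 0.05 and by limma-voom and DESeq2, and 1 was called lower (median 0.03). This was Pprc1, a coactivator related to Ppargc1a, with 139, 142 and 136 CPM in the control tumors and 54.2, 63.0, 82.7 and 69.7 CPM in the WDR11OE tumors (-1.05 ± 0.13, adjusted p = 0.00166, and 0.00549 without the GC trend). The WDR11OE tumors were all below the controls. Esrrg, highest of the regulators at 0.56, was not called (adjusted p = 0.742). No link between these genes and the mitochondrial transcripts was tested.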

How the data were processed

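RNA of 4 WDR11OE and 3 control tumors was sequenced by the authors, who per the study's methods mapped reads to NCBIM37 with the StrongArm pipeline and counted them per gene with HTSeq on GENCODE. The submitters' processing notes name CASAVA 1.7, STAR, BWA, HTSeq and mm9. The deposited values are raw counts per gene and tumor, without normalization, and 0 columns were left unmapped. The strand setting, the overlap mode and the treatment of multiply mapped reads are not given in the sources used here.

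Genes were annotated with GENCODE vM1 on NCBIM37 (33606 of 34592 matched, 97.1%), which also supplied the printed sequences. Groups followed the treatment labels, and replicate numbers follow deposition order and are names only. Counts were filtered with filterByExpr (17389 genes), scaled by TMM and tested two-sided with edgeR 4.0.16 (glmQLFit, glmQLFTest, R 4.3.3), with condition as the only term and Benjamini-Hochberg adjustment over all genes tested. An adjusted p under 0.05 was a call. The 2-fold call added a change of 2-fold or more in either direction and a mean log2 CPM (prior count 2) above 0. The biological coefficient of variation was 34.6%. The study tested with limma-voom, run here as an alternative (limma 3.58.1) beside DESeq2 1.42.0, other scalings and filters, removal of the GC trend, leaving out each tumor, and adding counts of nuclear copies. The procedure was checked on simulated data. Ratios were tested by exact permutation (SciPy 1.17.1), and nuclear copies were found with BLAST 2.17.0.

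All mitochondrial rRNAs and mRNAs, the tested tRNAs and, of each nuclear list, the genes with the lowest and highest log2 fold change and those past 2-fold and called are named. Members, lists, ratios and markers were chosen with earlier results of these data known. The genes Mterf1b and Mgme1 of the lists were not analysed here. Zero-count limits cover counting error only. Depth, 32116095 to 87141305 counts, left every mRNA and rRNA member with at least 324 counts in each tumor, whereas tRNA genes had 514 or fewer in all tumors together.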

Additional observations from a re-analysis of the deposited data

Results flagged for a closer look

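The tRNA share of counts in WDR11OE 4, 0.000876%, lay far from those of the other 3 WDR11OE tumors, 0.000421 to 0.000489%. The gap to the nearest tumor, relative to the range of the group, exceeded Dixon's 95% critical value for 4 samples. Of 26 WDR11OE groups of values examined this was the 1 that did so, and chance alone gives about 1 in 20. WDR11OE 4 was also the deepest library and had the highest mature neuron marker sum (680 CPM), and the part of either in its tRNA share was not tested.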

How the results depend on the processing

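No paired analysis was possible because the replicate numbers follow deposition order only. With the study's thresholds of 2-fold and a mean log2 CPM above 0, applied to the edgeR fit, 1 mRNA and 0 tRNAs were called higher, and mt-Tq was left out by the floor on the mean. Removing the GC trend gave 1 mRNA higher, 2 mRNAs lower, 2 rRNAs lower and 0 tRNAs higher, and 7 genes of the nuclear lists higher and 2 lower. It also turned the log2 fold changes of mt-Nd1 (-0.46), mt-Nd2 (-0.21), mt-Atp6 (-0.079), mt-Nd3 (-0.10) and mt-Cytb (-0.24). Counts of rRNAs called lower were 2 with limma-voom, DESeq2, unscaled library size and a filter of 1 CPM in 3 tumors. The tRNAs called higher were 0 with DESeq2, with no filter and with the 1 CPM filter, which leaves mt-Tq untested. Leaving out each tumor gave 3 to 8 mRNAs higher, 1 to 2 rRNAs lower, 0 to 1 tRNAs higher, and 15 to 25 higher and 3 to 5 lower genes of the nuclear lists. Over all genes these fits called 1560 to 2986 higher and 2011 to 2868 lower, against 3150 and 2744 with all tumors. The log2 ratio of mt-Rnr2 to mt-Rnr1 then differed by 0.80 to 1.02 and that of mt-Nd6 to mt-Nd5 by 1.31 to 1.79, where the exact permutation p could not go below 0.0667 without a control or 0.1 without a WDR11OE tumor. The tRNA share difference ranged from -0.27 without control 2 to 0.27 without control 1 and was -0.20 without WDR11OE 4. Leaving out 1 tumor also turned the sign of mt-Nd1 (-0.049 without WDR11OE 4, 0.22 without control 1), mt-Ti (0.25 without control 1, -0.27 without control 2), mt-Nd4 (0.063 without control 1, -0.44 without control 3) and mt-Nd5 (0.26 without control 1, -0.35 without control 3). Except where a fit had fewer tumors or genes by construction, the cause was not tested. The calls of mt-Rnr1 and mt-Nd6 held in all 17 other fits.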
